A study of Mus musculus with 16 samples.

Results

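Rora, the gene of the nuclear receptor RORα, was followed across its probe sets in mouse CD4+ T cells, measured on 16 Affymetrix arrays. A probe set belonged to Rora if the platform annotation gave it the single symbol Rora, which 9 of the 45037 non-control probe sets met. It is 1 of 18193 genes with such a probe set. No measured value entered this choice of probe sets, whereas Rora itself was chosen with earlier results of these data known. The cells were STAT3-deficient, labelled CD4 Cre; STAT3floxed, or WT, labelled STAT3floxed, so both genotypes carried the floxed allele and only the first the Cre recombinase, which under CD4 control acts in T cells from their time in the thymus onwards. Naive CD4+ CD44- CD62L+ cells were sorted and stimulated through CD3 and CD28 by antibodies over 3 days, with 10 ug/ml IL-6 together with 2.5 ug/ml TGFb, with IL-6 alone, with TGFb alone, or in medium. The dose units are those the labels give, and the age of the animals is not given in the sources used here. Each of the 8 groups of genotype and condition held 2 arrays, and their number limits the precision of every value. The labels do not say what a replicate is. Xist and Eif2s3y differed between the replicate numbers in every group, so replicates 1 and 2 did not come from the same animals, and the p-values cover the spread between these 2.

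RORα binds DNA as a single molecule at an AGGTCA core with an AT-rich stretch before it, and it recruits coactivators there. In T cells it acts in Th17 cells, the IL-17-producing cells that form when naive cells are activated in IL-6 with TGFb, and IL-6 signals mainly through the transcription factor STAT3. In many tissues RORα also drives the clock gene Arntl, at sites it shares with the repressors REV-ERBα and REV-ERBβ (Nr1d1 and Nr1d2).

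The gene lies at chr9:68653404-69388246 on the plus strand of GRCm38.p6 and spans 734843 bp, with 9 transcripts in RefSeq. The 9 probe sets were designed from 7 source sequences. 1424034_at and 1424035_at share a source sequence, as do 1436325_at and 1436326_at. Where in the gene each probe set lies was not known here, so probe sets are told apart by their identifiers alone. The promoter window is shown because the probe sets described first moved together across the conditions. Only 1 window was listed for this gene of 9 transcripts, and no other start was searched. Whether the transcripts that these probe sets read begin there is not known here. Motifs present or missing in it therefore cannot be tied to the changes below. The 250 bases before the listed RefSeq start (GRCm38.p6, chr9:68653536-68653785, plus strand, from RefSeq) read, 5′ to 3′ and with each CG in capitals:
Rora: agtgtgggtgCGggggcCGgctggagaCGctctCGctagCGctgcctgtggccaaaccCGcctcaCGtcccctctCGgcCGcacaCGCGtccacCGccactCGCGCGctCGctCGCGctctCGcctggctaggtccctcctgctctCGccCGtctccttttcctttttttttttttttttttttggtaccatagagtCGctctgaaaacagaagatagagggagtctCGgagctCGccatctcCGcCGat
This stretch lies downstream of the gene's first annotated base, 68653404, since the listed start is inside the gene's outer bounds. The full 300-base window, which includes 50 bases after the start, held 28 CG dinucleotides, of which 26 are in the stretch printed. The median of 32851 windows of the same length was 7, and 85.8% of windows held fewer than that of Rora. Its GC content was 60.3%, against a median of 52.7%, and its longest run of T was 21 bases. None of 5 motifs searched on both strands was found in it. These were TTCNNNGAA, the palindrome that STAT proteins bind (in 8.3% of all windows), AGGTCA, the core of the ROR site (16.3%), CAGACA, a SMAD motif (21%), GGGCGG, a GC box (35.7%), and CACGTG, an E-box (7.15%). The long noncoding RNA gene Gm31325 (chr9:68653067-68653791) covers the stretch printed, and RefSeq lists 4 further noncoding genes inside Rora.

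The arrays had median intensities of 66 to 73. Stat3 itself read log2 8.4 to 10.46 on the 8 STAT3-deficient arrays and 10.22 to 12.18 on the 8 WT arrays, so the ranges overlapped at their ends (1460700_at, whose position relative to the deleted part is not known here). The highest of the STAT3-deficient arrays was replicate 2 under TGFb (10.46), where replicate 1 read 8.46, and the lowest WT array was replicate 1 in medium (10.22). Of 10 T cell markers 9 were on the array, and 8 of them lay at log2 8 or above on all arrays. All measured markers of B cells, myeloid cells, mast cells and basophils, gamma delta T cells and CD8 T cells stayed under log2 8. For gamma delta T cells this was only Sox13, 1 of 4 genes listed, and for CD8 T cells 2 genes. Some markers of other types passed log2 8 on at least 1 array, among them Klrc1 and Eomes of NK cells (up to 8.85 and 8.34), Il13 of group 2 innate lymphoid cells (10.21), which activated T cells also make, and Pecam1 of endothelium (9.16). Under IL-6 with TGFb the summed intensity of the T cell markers was 33245 to 34688 in STAT3-deficient cells and 30803 to 34518 in WT cells. The same sum over 5 measured markers of group 2 innate lymphoid cells, which use Rora, was 354 to 389 in STAT3-deficient and 265 to 373 in WT cells, and over all conditions 340 to 1531 in STAT3-deficient and 265 to 708 in WT cells. Replicate 1 arrays read Xist at log2 11.91 to 13.21 and replicate 2 arrays at 6.64 to 7.6. Both numbers stand in every group, and a fit with the replicate number as a block left the genotype change of 1424034_at under IL-6 with TGFb at -3.04 (adjusted p = 0.0024). In STAT3-deficient cells under TGFb the 2 arrays correlated at 0.05 once group-shared replicate differences were removed, against 0.3 to 0.64 within the other groups. Replicate 1 of that group read Il17a at log2 9.55, whereas replicate 2 read 6.07, and among the replicate 2 arrays it was most like WT under IL-6 with TGFb (0.31). STAT3-deficient replicate 1 under IL-6 with TGFb was likewise most like WT under TGFb (0.36, against 0.3 with its own group). Of the 16 arrays 9 were most like another group by this measure, so this trait is not particular to them. STAT3-deficient replicate 1 under TGFb and under IL-6 with TGFb are called doubted below, and the main results that use them are given with and without them. STAT3-deficient replicate 2 under TGFb, with the Stat3 of 10.46, was most like WT under TGFb (0.59, against 0.05 with its own group). Without the doubted arrays it alone stands for its group.

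Of the 9 probe sets, 5 spanned more than 4-fold over the arrays and moved in step, and the other 4 stayed within a narrow band. This division was made after the values were seen and carries no test of its own. Over the 16 arrays 1420583_a_at spanned 38.8-fold, 1424034_at 23.1-fold, 1436325_at 40.4-fold, 1436326_at 16.2-fold and 1455165_at 27.2-fold. 1424035_at spanned 2.2-fold, 1441085_at 1.74-fold, 1458129_at 2.45-fold and 1458145_at 1.56-fold. Log2 values of the 5 correlated with each other at r = 0.9 to 0.98 over the 16 arrays (10 pairs). Between them and the other 4, r was -0.34 to 0.64 (20 pairs), and among the other 4 it was -0.03 to 0.66 (6 pairs). The points share groups and replicate numbers, so these correlations are descriptions with no test.

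1424034_at, which had the highest mean of the Rora probe sets and reached the level minimum of log2 6 (an intensity of 64) on all 16 arrays, read 314 and 354 in STAT3-deficient cells under IL-6 with TGFb, against 3068 and 2435 in WT cells. Under IL-6 it read 133 and 133 in STAT3-deficient cells, against 358 and 717 in WT cells. Both pairs of groups were separate, with the STAT3-deficient arrays lower. Under TGFb the values were 1309 and 584 in STAT3-deficient cells and 664 and 607 in WT cells, and in medium 215 and 181 in STAT3-deficient cells and 254 and 287 in WT cells. The groups overlapped under TGFb, where STAT3-deficient replicate 1 was the highest of the 4 arrays, and in medium the STAT3-deficient arrays were lower by a small margin. The WT arrays under IL-6 with TGFb were the highest of all 16 and the STAT3-deficient arrays under IL-6 the lowest.

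1420583_a_at followed the same order. It read 120 and 108 in STAT3-deficient cells under IL-6 with TGFb, against 1670 and 827 in WT cells, and 52 and 43 in STAT3-deficient cells under IL-6, against 216 and 263 in WT cells. Under TGFb it read 514 and 203 in STAT3-deficient cells and 288 and 215 in WT cells, and in medium 86 and 65 in STAT3-deficient cells and 78 and 96 in WT cells. The genotypes were separate under both conditions with IL-6 and overlapped under the other two.

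1455165_at read 96 and 150 in STAT3-deficient cells under IL-6 with TGFb, against 1196 and 1008 in WT cells, and 51 and 44 in STAT3-deficient cells under IL-6, against 111 and 336 in WT cells. Under TGFb its values were 214 and 228 in STAT3-deficient cells and 295 and 237 in WT cells, and in medium 77 and 74 in STAT3-deficient cells and 81 and 108 in WT cells. Here all WT arrays lay above the STAT3-deficient arrays of the same condition.

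The pair from 1 source sequence behaved alike. 1436325_at read 73 and 111 in STAT3-deficient cells under IL-6 with TGFb, against 970 and 690 in WT cells, 52 and 24 in STAT3-deficient cells under IL-6, against 86 and 256 in WT cells, 193 and 192 in STAT3-deficient cells under TGFb, against 182 and 155 in WT cells, and 31 and 54 in STAT3-deficient medium cultures, against 37 and 71 in WT ones. 1436326_at read 51 and 54 in STAT3-deficient cells under IL-6 with TGFb, against 353 and 357 in WT cells, 30 and 31 in STAT3-deficient cells under IL-6, against 43 and 118 in WT cells, 83 and 70 in STAT3-deficient cells under TGFb, against 71 and 88 in WT cells, and 22 and 37 in STAT3-deficient medium cultures, against 46 and 53 in WT ones. In medium both lay below the level minimum on most arrays, so their folds against medium depend on the background.

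**Figure D1:**
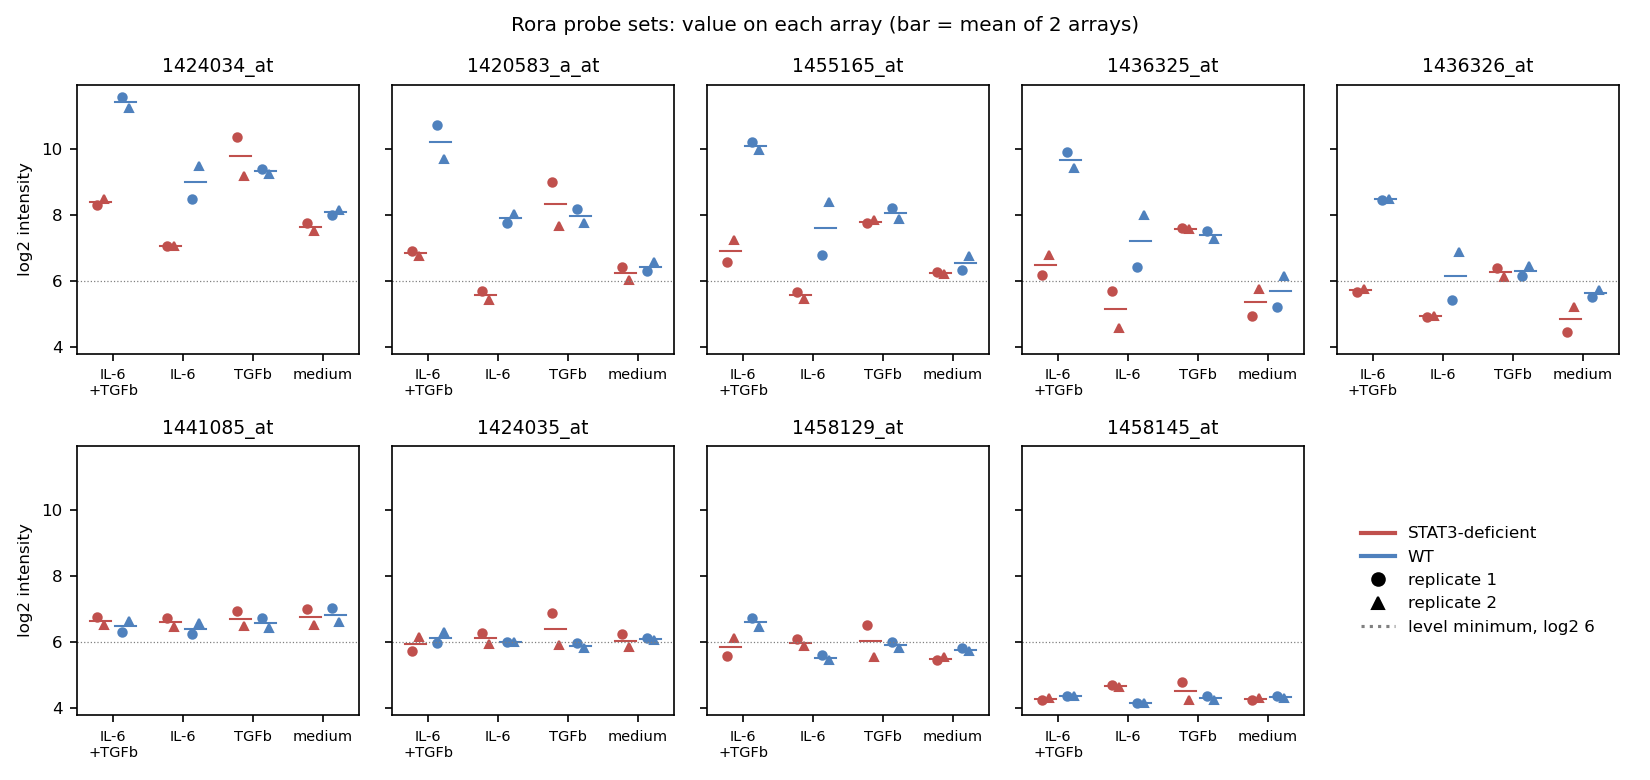
Log2 intensity (vertical axis) of each of the 9 Rora probe sets by cytokine condition (horizontal axis), with STAT3-deficient cells in red and WT cells in blue; circles are replicate 1, triangles replicate 2, bars the mean of 2 arrays, and the dotted line the level minimum of log2 6. In the upper row the WT arrays under IL-6 with TGFb stand above all others, and in the lower row no probe set spans more than 2.45-fold.

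The first question was how the loss of STAT3 changed Rora in the condition that gives Th17 cells. Under IL-6 with TGFb, 5 of the 8 probe sets tested were lower in STAT3-deficient cells and none was higher, where 0.812% of the 27220 probe sets tested were called lower. A call is an adjusted p under 0.05 in limma's moderated test over all probe sets tested. 1424034_at was 8.2-fold lower (log2 change -3.04, SE 0.37, adjusted p = 0.00393), with group means of 8.38 ± 0.12 in STAT3-deficient and 11.42 ± 0.24 in WT cells (log2, SD, n = 2). The changes were -3.37 for 1420583_a_at (SE 0.42, adjusted p = 0.00436), -3.19 for 1455165_at (adjusted p = 0.00559), -3.18 for 1436325_at (adjusted p = 0.0201) and -2.76 for 1436326_at (adjusted p = 0.00803). In RNA from whole cultures, fewer cells with Rora RNA and less of it per cell cannot be told apart. With the 2 doubted arrays left out, 2 of the 5 calls held, those of 1424034_at (-2.95, adjusted p = 0.0209) and 1420583_a_at (-3.44, adjusted p = 0.017), and the changes of the other 3 lay between -2.88 and -2.72. Without STAT3-deficient replicate 1 alone 1 call held, and 1424034_at then gave -2.95 (adjusted p = 0.0532).

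With IL-6 alone the same 5 probe sets were lower by log2 1.22 to 2.33 in STAT3-deficient cells, and 3 of the 8 tested passed the threshold, where 1.77% of all probe sets did so downwards. Rora fell 3.81-fold at 1424034_at (log2 change -1.93, SE 0.37, adjusted p = 0.0325), 5.04-fold at 1420583_a_at (adjusted p = 0.0275) and 4.08-fold at 1455165_at (adjusted p = 0.0368). At 1420583_a_at and 1455165_at both STAT3-deficient arrays read under the level minimum of 64, so the sizes of these falls depend on the background. 1436325_at changed by -2.07 and 1436326_at by -1.22 (adjusted p = 0.0738 and 0.124). With the replicate number as a block both passed (adjusted p = 0.0317 and 0.0435), so that 5 probe sets were called, when the calls over all 27220 numbered 2729. The WT replicates differed here, 358 and 717 at 1424034_at, and without WT replicate 2 the change of 1424034_at was -1.43 (adjusted p = 0.0854). In limma's refits no Rora probe set was called when either STAT3-deficient array under IL-6, or WT replicate 2, was left out.

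Without IL-6 no genotype difference passed the threshold. Under TGFb the 5 probe sets changed by -0.26 to 0.46, and in medium by -0.79 to -0.21. None of the 8 tested passed limma's adjusted threshold in either condition, and none had an unadjusted p under 0.05. No probe set on the array was called in these comparisons (0%), with or without the replicate block. Without it, 167 and 63 of 27220 had an unadjusted p under 0.05 in limma, fewer than that threshold gives without any difference. Same-numbered arrays were correlated, which this fit did not take into account. The lack of small p-values here therefore says little about whether Rora differed. Under TGFb the change of 1424034_at was 0.46 with all arrays and -0.12 without STAT3-deficient replicate 1, which leaves replicate 2, the STAT3-deficient array with the highest Stat3. Averaged over the 4 conditions the 5 probe sets were lower by log2 1.21 to 1.45, and 4 passed, with 1436325_at at an adjusted p of 0.0546 (0.0186 with the replicate block). Of all probe sets 0.551% were called lower in that average. When the doubted arrays were left out, 2 of the 4 calls held, 1424034_at at -1.36 and 1420583_a_at at -1.57 (adjusted p = 0.0268 for both).

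**Figure D2:**
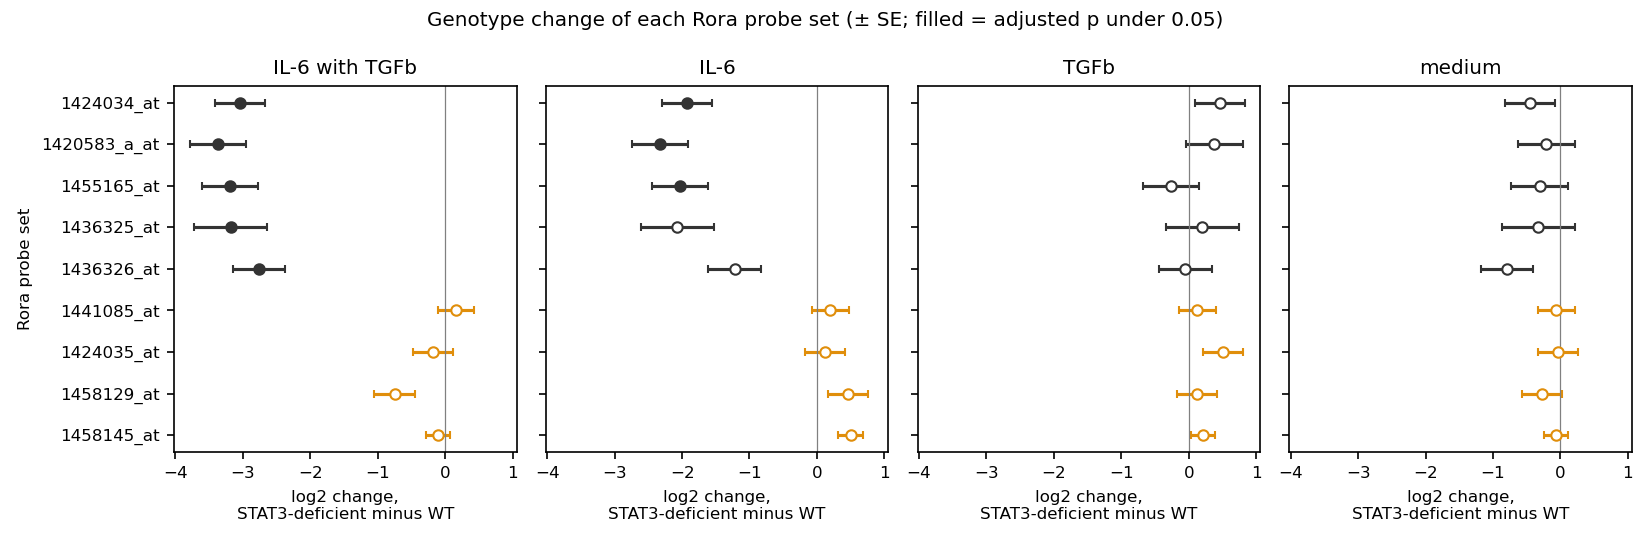
Log2 change, STAT3-deficient minus WT, of each Rora probe set (vertical axis) in each of the 4 conditions (panels), with its standard error; filled points have an adjusted p under 0.05, and 1458145_at, which was not tested, is drawn with the error of the fit without a level minimum. The 5 upper probe sets lie between -3.37 and -2.76 under IL-6 with TGFb, and the 4 lower ones, in orange, between -0.75 and 0.16.

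The 4 other probe sets gave no such change. 1424035_at, from the same source sequence as 1424034_at, read 54 and 72 in STAT3-deficient cells under IL-6 with TGFb, against 63 and 79 in WT cells (log2 change -0.18, SE 0.3, adjusted p = 0.939). 1441085_at read 110 and 92 in STAT3-deficient cells there, against 80 and 101 in WT cells (0.16, SE 0.27, adjusted p = 0.939). Both pairs of groups overlapped. 1458129_at read 48 and 70 in STAT3-deficient cells, against 108 and 88 in WT cells, a change of -0.75 that kept the direction of the 5 without passing the threshold (unadjusted p = 0.0283, adjusted p = 0.475). 1458145_at read 19 and 20 in STAT3-deficient cells, against 21 and 21 in WT cells, lay between 18 and 28 on all arrays and was not tested. Under IL-6 these 4 changed by 0.12 to 0.5, upwards, and the 3 tested had adjusted p-values of 0.413 to 0.847. STAT3-deficient replicates 1 and 2 under IL-6 held the highest of 16 values for 21.7% and 8.55% of 20496 dim probe sets, against 4.97% and 3.89% for the WT arrays, and the part of this in these changes was not tested. 1424035_at, 1458129_at and 1458145_at had medians of 64, 57 and 20 over the arrays, at or under the level minimum of 64, and 1441085_at had a median of 97.5. STAT3-deficient replicate 1 under TGFb gave the highest of 16 values for 1424035_at (119) and 1458145_at (28).

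The difference of each tested Rora probe set from 1424034_at was also fitted within arrays. The division into 5 and 4 was seen on the same arrays, so this fit gives the size and error of a difference already seen and is no independent evidence of it. Under IL-6 with TGFb the genotype change of 1424035_at lay 2.86 above that of 1424034_at (SE 0.32, adjusted p = 0.00803) and that of 1441085_at lay 3.2 above it (SE 0.35, adjusted p = 0.00803). Only 0.031% of 9679 pairs of probe sets of 1 gene were called in this comparison, which is 3 pairs, and 2 of them were these. 1458129_at lay 2.29 above it (adjusted p = 0.0541, and 0.0163 with the replicate block). The 4 probe sets that moved with 1424034_at differed from it by -0.33 to 0.28, with standard errors of 0.29 to 0.49 and adjusted p = 1. Leaving out the 2 doubted arrays, the differences of 1424035_at and 1441085_at were both 2.98 and no longer passed (adjusted p = 0.201 and 0.2), and that of 1458129_at was 2.47 (adjusted p = 0.381). The choice of 1424034_at as the partner followed from its mean over all arrays and not from a comparison.

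Under IL-6 the same test set 1458129_at apart (2.39, adjusted p = 0.0286), where 0.0723% of pairs were called. 1424035_at lay 2.05 above 1424034_at (adjusted p = 0.0597, and 0.0152 with the block) and 1441085_at 2.13 above it (adjusted p = 0.0674, and 0.0152 with the block). With 1424035_at and 1458129_at around the level minimum, these differences carry mainly the change of 1424034_at itself.

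The second question was what the cytokines did to Rora in each genotype. In WT cells IL-6 with TGFb raised all 5 moving probe sets over medium, by 10.1-fold at 1424034_at (log2 change 3.34, SE 0.37, adjusted p = 0.00117), where 1.55% of all probe sets were called higher. The changes of the others were 3.76 for 1420583_a_at (adjusted p = 0.00117), 3.55 for 1455165_at (adjusted p = 0.00154), 4 for 1436325_at (adjusted p = 0.00357) and 2.85 for 1436326_at (adjusted p = 0.00396). All 5 kept their call when any 1 of the 4 arrays was left out. Within an array, 1424035_at, 1441085_at and 1458129_at changed less than 1424034_at, with fitted differences of -3.3, -3.69 and -2.51 (adjusted p = 0.00116, 0.000999 and 0.0111, with 0.196% of pairs called). Over medium 1424035_at changed by 0.04 and 1441085_at by -0.35. 1458129_at shared the direction of the 5 without a call, at 0.83 (limma's unadjusted p = 0.0179, adjusted p = 0.231). With both cytokines it also lay 0.68 above TGFb alone and 1.07 above IL-6 alone (adjusted p = 0.765 and 0.214), at values around the level minimum.

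Each cytokine alone gave smaller rises in WT cells that did not pass limma's threshold. With TGFb the 5 changed by 0.68 to 1.71, and 1424034_at by 1.23 (adjusted p = 0.37). With IL-6 they changed by 0.53 to 1.53, and 1424034_at by 0.91 (adjusted p = 0.395). In each of these comparisons 4 Rora probe sets had an unadjusted p under 0.05 and none was called, where 0.0992% and 0.187% of all probe sets were called higher. The step from 1 cytokine to both did pass. Adding IL-6 to TGFb raised 1424034_at 4.31-fold (2.11, adjusted p = 0.0378), 1436326_at 4.49-fold (2.17, adjusted p = 0.0404) and 1420583_a_at 4.72-fold (2.24, adjusted p = 0.0499), 3 of 8 against 0.404% of all probe sets. Without any 1 of the 4 arrays, none of these 3 calls held in limma's refits, and 1424034_at gave 1.94 to 2.27. Adding TGFb to IL-6 raised 4 of 8, against 0.507%, with 5.39-fold at 1424034_at (2.43, adjusted p = 0.015). 1455165_at rose by 2.51, 1436326_at by 2.32 and 1420583_a_at by 2.3 (adjusted p = 0.0231, 0.0247 and 0.0384). The change of 1436325_at was 2.46 (adjusted p = 0.0802), a call only when the replicate number was a block (adjusted p = 0.0433). Leaving out WT replicate 2 under IL-6 kept the call of 1424034_at (2.93, adjusted p = 0.00527), and each of the other 3 omissions ended it. Whether the log2 change with both cytokines exceeded the sum of the log2 changes with each alone was not decided by these arrays. That excess was 1.2 at 1424034_at (SE 0.53, adjusted p = 0.95 in limma, with 0.0147% of all probe sets called higher). A sum of log2 changes is a product of folds, and a sum of rises in intensity was not tested. Geometric mean intensities of 1424034_at in WT cells were 270 in medium, 507 with IL-6, 635 with TGFb and 2730 with both.

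In STAT3-deficient cells Rora was highest with TGFb alone as the arrays are labelled, and with the labels of the 2 doubted arrays exchanged the change of 1424034_at with both cytokines against TGFb was 0.67 (adjusted p = 1). TGFb changed 1424034_at by 2.15 over medium (SE 0.37, adjusted p = 0.0544), and the 5 by 1.42 to 2.23, all with an unadjusted p under 0.05 and none called. With the replicate block 1424034_at passed (adjusted p = 0.0281). Its 2 arrays under TGFb were 1309 and 584, against 215 and 181 in medium, and without replicate 1 under TGFb the change was 1.57. Across all probe sets 0.187% were called higher there. IL-6 with TGFb changed 1424034_at by 0.76 over medium (0.84 without the doubted arrays) and IL-6 by -0.57 (adjusted p = 1 for both). With both cytokines 1 Rora probe set had an unadjusted p under 0.05 and with IL-6 none had. Against medium 0.0882% of all probe sets were called higher with both cytokines. With IL-6 limma called 0% in either direction, where 325 had an unadjusted p under 0.05, again fewer than that threshold gives without any difference. Both cytokines against IL-6 alone gave 1.33 at 1424034_at (adjusted p = 0.349), with 4 Rora probe sets at an unadjusted p under 0.05 and none called, where 0.151% of all probe sets were called higher.

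Adding IL-6 to TGFb changed 1424034_at by -1.39 in STAT3-deficient cells (unadjusted p = 0.00325, adjusted p = 1), where WT cells showed 2.11. All 5 moving probe sets were lower on both arrays with IL-6 and TGFb than on both with TGFb alone in STAT3-deficient cells. None was called by limma (0% of all probe sets, with 805 at an unadjusted p under 0.05). How many of all probe sets separated in this way was not counted. Without the doubted arrays the change of 1424034_at was -0.72. The genotype difference in this step, a term added after values were seen, was -3.5 at 1424034_at (SE 0.53). Its adjusted p in limma was 0.054 over all probe sets and 0.0308 with the replicate block. Only 0.0331% of all probe sets were called lower in this term. For the other 4 it was -3.74 to -2.71, with adjusted p-values of 0.0666 to 0.216. Without the 2 doubted arrays the term at 1424034_at was -2.83 (adjusted p = 0.394). Without STAT3-deficient replicate 2 under TGFb, which leaves the doubted replicate 1 alone in that group, it was -4.08. Set against medium, the genotype difference in the response to both cytokines was -2.58 (SE 0.53, adjusted p = 0.172), in that to IL-6 -1.48 (adjusted p = 0.599) and in that to TGFb 0.91 (adjusted p = 1). Without the doubted arrays the first was -2.5 (adjusted p = 0.226) and the third 0.33. No Rora probe set was called by limma in these 3 terms, where 0.0551%, 0.022% and 0% of all probe sets were called lower, and 5, 4 and 0 Rora probe sets had an unadjusted p under 0.05.

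**Figure D3:**
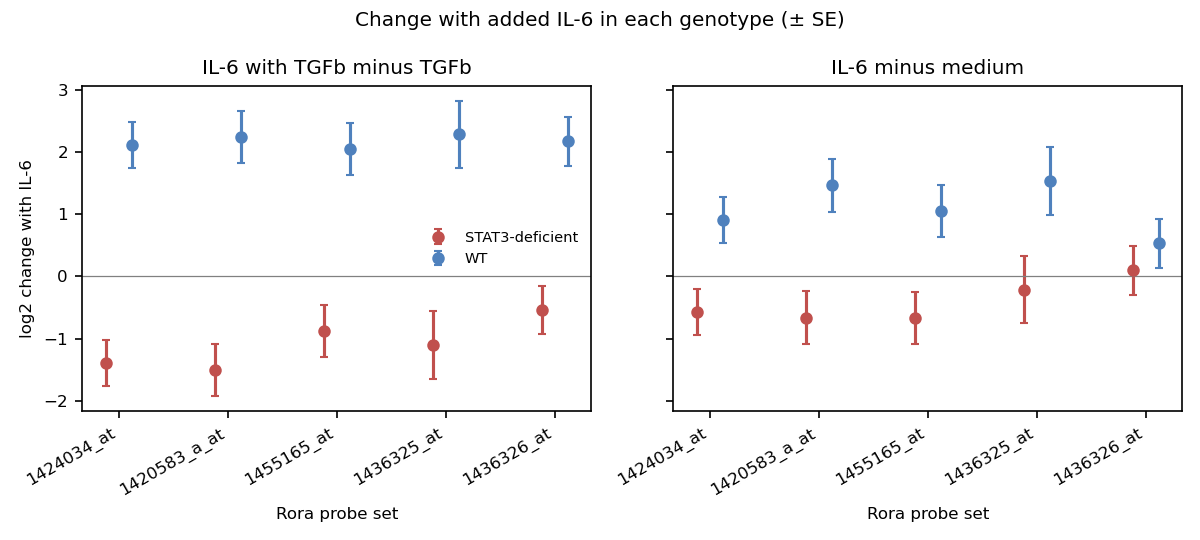
Log2 change with added IL-6 (vertical axis, with standard error), on top of TGFb at left and of medium at right, for the 5 moving Rora probe sets in STAT3-deficient cells (red) and WT cells (blue). On top of TGFb the STAT3-deficient values run from -1.5 to -0.54 and the WT values from 2.05 to 2.28.

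The order of the 8 groups was nearly the same at all 5 probe sets. At 1424034_at the mean log2 levels were 11.42 in WT IL-6 with TGFb, 9.77 in STAT3-deficient TGFb, 9.31 in WT TGFb, 8.98 in WT IL-6, 8.38 in STAT3-deficient IL-6 with TGFb, 8.08 in WT medium, 7.62 in STAT3-deficient medium and 7.06 in STAT3-deficient IL-6, with a within-group SD of 0.4. The arrays of neighbours in this order overlapped between STAT3-deficient TGFb and WT TGFb and between WT TGFb and WT IL-6, and not elsewhere. The gaps of 0.3 between places 5 and 6 and of 0.33 between places 3 and 4 were smaller than that SD. WT IL-6 with TGFb was first, WT IL-6 4th, STAT3-deficient IL-6 with TGFb 5th and WT medium 6th at all 5 probe sets. The TGFb groups of both genotypes shared places 2 and 3, and STAT3-deficient medium and IL-6 shared places 7 and 8.

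Rora's relative Rorb and its neighbours were read from the gene-level fit, in which the probe set with the highest mean stands for a gene. Rorb, which encodes the receptor of retina and brain, read 67 to 101 at its tested probe set (1425162_at), and its changes in the genotype and condition comparisons lay between -0.35 and 0.27. Its other 2 probe sets stayed at 14 to 26. Ice2, a subunit of the little elongation complex and the next gene 9658 bp beyond Rora, read log2 8.12 to 9.47 and changed by -0.37 to 0.18 in the genotype and condition comparisons, with adjusted p-values of 0.648 or more. The noncoding gene Gm15511, inside Rora, read log2 4.46 to 5.29 and was not tested.

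Of a list of 20 Th17 genes, 17 were measured. Under IL-6 with TGFb 4 were called lower in STAT3-deficient cells and none higher, with a median change of -1.89 against 0.01 over all 13007 genes tested, of which 1.19% were called. They were the cytokines Il21 (-7.26) and Il17a (-4.48) and the paired membrane proteins Tmem176b (-2.61) and Tmem176a (-2.27), and the same 4 were called without the doubted arrays. Under IL-6 alone, leaving out the deleted gene Stat3, 3 of 16 were called lower, with a median of -0.77 against -0.03 (3.29% of genes called). These were Il21 (-7.05) and the transcription factors Maf (-5.65) and Ahr (-3.32). In WT cells IL-6 with TGFb raised 7 over medium (median 2.34 against -0.04, 3% of genes called), led by Maf (7.24), Il21 (6.84) and Ahr (6.21). Il21, Maf in IL-6 and Ahr in IL-6 lay under the level minimum on STAT3-deficient arrays, and in WT medium all 3 lay at or under it, so the sizes of these falls and rises depend on the background.

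Of 16 genes of the clock and of ROR and REV-ERB elements, 15 were tested and none was called in any of the 21 comparisons. Arntl, the clock activator that RORα is known to drive, read 163 and 199 in STAT3-deficient cells under IL-6 with TGFb, against 475 and 501 in WT cells (log2 change -1.44, SE 0.4, adjusted p = 0.158). With IL-6 alone it read 105 and 86 in STAT3-deficient cells, against 231 and 259 in WT cells (-1.36, adjusted p = 0.0835). The genotypes were separate in both conditions, with the STAT3-deficient arrays lower, and the adjusted threshold was not passed. Nr1d2, for the repressor REV-ERBβ, changed by -0.71 and -0.54 in the same comparisons (adjusted p = 0.494 and 0.349), and Cry1, a repressor of the clock, by -0.72 and -0.35 (adjusted p = 0.207 and 0.367). Without the doubted arrays Arntl gave -1.29 under IL-6 with TGFb (adjusted p = 0.157). Of the 15 genes 6 were above 0 and 8 below under IL-6 with TGFb, and 2 above and 12 below under IL-6. Dbp, a clock output factor, gave 0.83 and -1.17 (adjusted p = 0.694 and 0.233), and Nfil3, a repressor of clock outputs, -2.18 and -2.96 with a standard error of 1.54 (adjusted p = 0.729 and 0.289). In limma's test an unadjusted p under 0.05 was met by 3 of the 15 in each of these comparisons, against 10.1% and 21.7% of all 13007 genes. The list's median was -0.24 against 0.01 over all genes under IL-6 with TGFb, and -0.34 against -0.03 under IL-6.

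Of 12 coregulators and partners of ROR proteins, 9 were tested and none was called in limma's fit in any comparison. Ncoa1, a coactivator of nuclear receptors, changed by -0.58 under IL-6 with TGFb and by -0.94 under IL-6 (adjusted p = 0.49 and 0.0734). Foxp3, the regulator of regulatory T cells, whose protein is known to bind RORα, read 163 and 507 in STAT3-deficient cells under IL-6 with TGFb, against 28 and 239 in WT cells (1.81, SE 1.4, adjusted p = 0.759), with groups that overlapped. An unadjusted p under 0.05 was met by 1 of the 9 with both cytokines and by 2 with IL-6, near those shares of all genes.

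The genes whose levels followed 1424034_at most closely over the 16 arrays were Itpr3, an IP3 receptor that releases calcium from the endoplasmic reticulum (r = 0.97), 4930486L24Rik (0.95), Plcg1, the phospholipase that makes IP3 after T cell receptor ligation (0.94), Wbp1l (0.94) and Ulk2, a kinase of autophagy (0.94). Without the 2 WT arrays under IL-6 with TGFb, which lay farthest out, r was 0.94, 0.91, 0.96, 0.87 and 0.89, and without the 2 doubted arrays 0.98, 0.95, 0.94, 0.94 and 0.93. Itpr3 had mean log2 levels of 9.03 in STAT3-deficient and 10.34 in WT cells with both cytokines, and of 8.37 and 9.25 in the same order under IL-6. The genes running most against Rora were Hdgfl3 (-0.94), the mismatch repair gene Pms1 (-0.94), the mitochondrial folate enzyme Mthfd2 (-0.92), the fumarase gene Fh1 (-0.91) and the cell cycle kinase Cdk1 (-0.91). Among 13006 genes 35 had r of 0.9 or more, Arntl among them at 0.91, and from the Th17 list Ahr reached 0.88, Maf 0.84 and Il17a 0.83, whereas Batf was at 0. These values describe 16 arrays that share groups and replicate numbers, and carry no p.

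**Figure D4:**
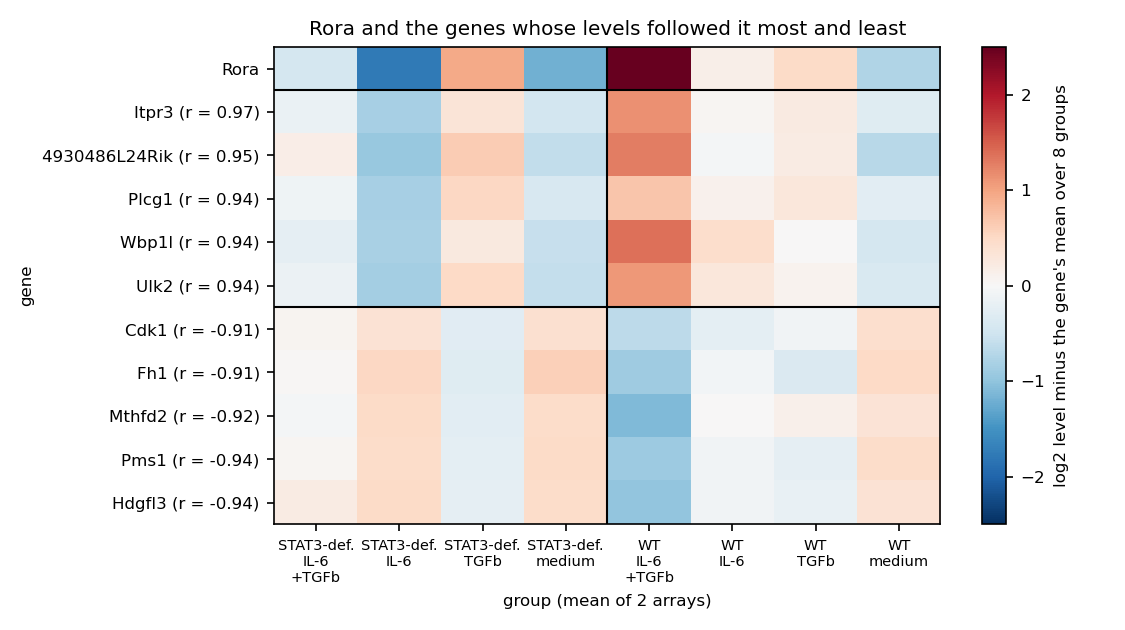
Mean log2 level of 2 arrays minus the gene's mean over the 8 groups (colour scale) for Rora (1424034_at), the 5 genes with the highest and the 5 with the lowest correlation with it over 16 arrays (rows), in the 4 STAT3-deficient groups at left and the 4 WT groups at right (columns). WT cells under IL-6 with TGFb hold the extreme value of every gene shown, high for Rora and Itpr3 and low for Hdgfl3.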

How the data were processed

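The authors deposited 1 intensity per probe set and array, linear and whole, between 6 and 37243, made with RMA per the submitters' processing notes. The version of RMA and the step back to a linear scale were not stated there. MirVana and MessageAmpII kits served for RNA isolation and biotin labelling, per the labels' protocols. The deposited normalization was kept. Log2 of the intensity was taken with no pseudocount, and 64 control probe sets were left out. Of 45037 probe sets the platform annotation gave 1 symbol to 34945, several to 932 and none to 9160.

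A probe set was tested if it reached log2 6, an intensity of 64, on at least 2 of the 16 arrays, which 27220 did. Of the 9 Rora probe sets 8 did, and that test admits a probe set high in 1 group only. Files were read by data.table version 1.17.8. One fit in limma 3.58.1 (R 4.3.3) took all arrays, giving each of 8 groups its own mean, through lmFit, contrasts.fit and eBayes, two-sided, with Benjamini-Hochberg adjustment over all probe sets within each of 21 comparisons. The fit had 8 residual and 3.17 prior degrees of freedom and a prior SD of 0.281. Genes with several probe sets gave 9679 within-array differences, each probe set minus the one with the highest mean of its gene, fitted the same way. Lists used the probe set with the highest mean for each of 13007 genes. The probe set fit was tested on simulated data for the genotype comparison under IL-6 with TGFb only. The simulated arrays were independent, whereas same-numbered arrays here were correlated. The within-array and gene-level fits were not tested in this way. Plots used matplotlib 3.10.9 (Python 3.11.15).

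The members, lists and doubted arrays were chosen with earlier results of these data known. Named were every Rora probe set, the 2 nearest genes on each side where measured, Rorb, called list members, and the 5 genes with the highest and lowest correlation. Others of the lists (Arntl, Nr1d2, Cry1, Dbp, Nfil3, Ncoa1, Foxp3, Batf) and Gm15511 were named after their values were seen. The 3 comparisons on IL-6 added to TGFb between genotypes and on both cytokines against the sum of their log2 changes in each genotype were added after values were seen. Deviations from group means of same-numbered arrays correlated at 0.21 to 0.84 (median 0.405) across probe sets in 28 of 28 pairs of groups, so the replicate numbers of the titles pair the samples, and what they stand for is not stated. Replicate 1 arrays read Eif2s3y, on the Y chromosome, at log2 3.81 to 4.52 and replicate 2 arrays at 9.84 to 10.98. For Actb, the 5' control probe set minus the 3' one gave -0.5 to -0.11 on replicate 1 and -1.71 to -0.88 on replicate 2 arrays (log2). No 2 arrays shared more than 8.18% of identical intensities.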

Additional observations from a re-analysis of the deposited data

Results flagged for a closer look

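As the arrays are labelled, Rora changed in opposite directions between the genotypes when IL-6 was added. With IL-6 on top of TGFb, both STAT3-deficient arrays lay below both arrays with TGFb alone, and both WT arrays lay above theirs. This held at all 5 moving probe sets, which read the same gene. How many of all probe sets separated in this way was not counted. The differences between the genotypes' changes were -3.74 for 1420583_a_at, -3.5 for 1424034_at, -3.38 for 1436325_at, -2.71 for 1436326_at and -2.93 for 1455165_at. The interaction term, which was added after values were seen, tests each of them. Over all probe sets the adjusted p-values were 0.0666, 0.054, 0.216, 0.146 and 0.146. With 1 probe set per gene, 1424034_at passed at the same -3.5 (adjusted p = 0.0418). Without the 2 doubted arrays its term was -2.83 (adjusted p = 0.394). In STAT3-deficient cells alone its change was -1.39 (adjusted p = 1), and with the labels of those 2 arrays exchanged 0.67, the direction of WT cells.

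With IL-6 against medium, 1420583_a_at, 1424034_at and 1455165_at were lower in STAT3-deficient and higher in WT cells on both arrays. Their differences were -2.12, -1.48 and -1.72 (adjusted p = 0.499, 0.599 and 0.573 for the interaction in limma). These probe sets read the same gene, and the share of all probe sets that separated in this way was not counted. 1458129_at ran the other way. It read 69 and 59 in STAT3-deficient cells with IL-6, against 44 and 47 in medium, and 49 and 44 in WT cells with IL-6, against 57 and 53 in medium, a difference of 0.73 (adjusted p = 0.776). Its values lie around the level minimum of 64. STAT3-deficient replicates 1 and 2 with IL-6 held the highest of 16 values for 21.7% and 8.55% of 20496 dim probe sets, against 5.13% and 1.7% for those in medium, and the part of this in the result was not tested.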

How the results depend on the processing

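Of 393 refits of 30 single results at other Rora probe sets and pairs, 295 kept direction and side of the threshold, 77 lost a call, 21 gained one and 0 turned direction. At 1424034_at, with all 21 comparisons refitted, the following moved. With the replicate block the TGFb response of STAT3-deficient cells (2.15, adjusted p = 0.0281) and the genotype difference in IL-6 added to TGFb (-3.5, adjusted p = 0.0308) passed, and 5 probe sets were called under IL-6 in place of 3. No other call at 1424034_at changed with the block. Over all probe sets the block moved the calls under IL-6 with TGFb to 585 in place of 255, under IL-6 to 2729 in place of 579, in the mean of 4 conditions to 1222 in place of 167 and in WT cells with both cytokines over medium to 1345 in place of 546. Without a level minimum 1 Rora probe set was called for IL-6 added to TGFb in WT cells, in place of 3. Quantile normalization ended the genotype call under IL-6 (-1.74) and that of IL-6 added to TGFb in WT cells (2.14). Array weights ended the first (-1.93, with 0 probe sets called) and gave calls to the interaction with both cytokines (-2.58) and with IL-6 added to TGFb (-3.5). A fit of the compared arrays alone ended the IL-6 genotype call (-1.93, with 0 called) and TGFb added to IL-6 in WT cells (2.43). A minimum of log2 7, median centring and the gene-level fit each called the TGFb response of STAT3-deficient cells (2.15). Median centring (-3.51), adding 32 (-3.37) and the gene-level fit (-3.5) called the interaction with IL-6 added to TGFb. Without the 2 doubted arrays the TGFb genotype change turned to -0.12, and 2 probe sets were called under IL-6 with TGFb in place of 5. With their labels exchanged it was -0.57. The exchange also gave -2.01 under IL-6 with TGFb (adjusted p = 0.167, with 2 called) and -1.24 in the mean of 4 conditions (adjusted p = 0.0674). It gave 0.67 for IL-6 added to TGFb in STAT3-deficient cells and -0.12 for the TGFb interaction. For both cytokines beyond the sum of their log2 changes in STAT3-deficient cells it gave 1.24 (-0.82 as labelled). The cause was not tested. Leaving out 1 array at a time, the genotype change at 1424034_at was -3.2 to -2.87 under IL-6 with TGFb (3 of 4 called, with 1 to 3 Rora probe sets), -2.43 to -1.43 under IL-6 (1 of 4, with 0 to 4 Rora probe sets), -0.12 to 1.04 under TGFb and -1.38 to -1.09 in the mean (8 of 16 called). IL-6 added to TGFb in WT cells gave 1.94 to 2.27, and TGFb added to IL-6 1.93 to 2.93. TGFb in STAT3-deficient cells gave 1.57 to 2.73, and the interaction with IL-6 added to TGFb -4.08 to -2.91. With 2 arrays a group, a change near the threshold depends on 1 array, and values near log2 6 carry background.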
